A study of Mus musculus with 16 samples.

Results

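Genes of the cytosolic ribosomal proteins (RPs) were examined in RNA-seq libraries of mouse bone marrow derived macrophages (BMDMs). Members were chosen by symbol and by their summed level over the whole series. A symbol had to follow the Rpl or Rps naming pattern or be Rplp0, Rplp1, Rplp2 or Rpsa, and the gene needed at least 1000 counts summed over the 16 libraries. The pattern matched 82 symbols, and 79 of the 22287 genes in the table were members. They comprised 43 proteins of the large ribosomal subunit, 30 of the small subunit, 3 of the stalk and 3 paralogs, Rpl22l1, Rpl7l1 and Rps27l. The 3 genes left out by the threshold, all far below it, were the paralogs Rpl10l, Rpl39l and Rpl3l with 0, 24 and 49 summed counts, and the members with the fewest, well above it, were Rpl22l1 with 8989 and Rpl36 with 11029. The rule used no contrast between groups. All 79 members passed edgeR's expression filter and were among the 12514 genes tested.

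The cells came from the marrow of 8 week old C57BL/6J mice, and the labels name no altered allele. They were grown for 7 days with GM-CSF (GM) or M-CSF (M), the growth factors that turn marrow precursors into macrophages, on dishes treated for tissue culture (TC) or left untreated (noTC). They then received vehicle or LPS, a bacterial cell wall component that macrophages sense through Tlr4, for 3 h. This gave 8 groups of 2 libraries: at steady state M-TC, M-noTC, GM-TC and GM-noTC, and upon LPS challenge the same names ending in LPS. Where 4 LPS values follow each other without group names, they are those of GM cells on TC dishes, GM cells on noTC dishes, M cells on TC dishes and M cells on noTC dishes. Values of the 4 comparisons of GM with M follow in the order TC, noTC, TC with LPS and noTC with LPS. The study calls the 2 libraries of a group biological replicates, but neither it nor the labels say whether they came from separate mice or from separate cultures of the same marrow, so p-values measure the spread between these samples. GM-CSF cultures of marrow are known as mixtures of macrophages with cells that resemble dendritic cells, which limits GM as a model of a single cell type. All 8 macrophage markers were detected in every library, with a sum of 19500 to 45600 CPM (each library's counts scaled to the same total). Lyz2 alone had 12900 to 41200 CPM, whereas Mertk had 26.4 to 162 CPM.

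A ribosome is built from ribosomal RNA and one copy each of most RPs, so a cell makes the RPs in matched amounts. The small subunit reads the mRNA, the large subunit joins amino acids, and the stalk of Rplp0, Rplp1 and Rplp2 recruits the factors that drive elongation. Most RP mRNAs begin with a C followed by a run of pyrimidines, the 5′ terminal oligopyrimidine tract (5′TOP), through which growth signals acting on mTOR and the binding protein Larp1 control their translation and stability. Activated macrophages produce large amounts of secreted protein, and the translation machinery is regulated in them at several levels.

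The start of a member's mRNA was read from the RefSeq promoter table (GRCm38.p6), in which 59 of the 79 members had 70 start windows. The windows below run from 10 bases before to 20 bases from the annotated start, on the gene's strand, and capitals mark an unbroken pyrimidine run that opens with C at the start. Rpl24 is shown because it had the largest LPS response among the members. The others were picked because they carry the tract that RP mRNAs are known for. The choice sets up no comparison, since most member windows have no such run. Those of Rpl27, Rps2 and Rpsa, not printed, also have none.
Rpl24 (chr16:55966265-55966294, plus strand): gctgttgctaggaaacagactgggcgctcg
Rpl38 (chr11:114668570-114668599, plus strand): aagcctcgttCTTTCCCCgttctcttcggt
Rps6 (chr4:86857348-86857377, minus strand): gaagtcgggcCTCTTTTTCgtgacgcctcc
Rpl15 (chr14:18270967-18270996, minus strand): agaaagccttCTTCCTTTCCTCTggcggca
Rpl35 (chr2:39005112-39005141, minus strand): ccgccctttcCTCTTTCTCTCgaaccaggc
Rps27 (chr3:90213629-90213658, minus strand): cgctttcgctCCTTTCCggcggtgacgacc
Rplp2 (chr7:141447641-141447670, plus strand): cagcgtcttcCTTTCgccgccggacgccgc
A run of a C and at least 4 more pyrimidines at the annotated start was found in 13 of the 70 member windows (18.6%), comparing with 2.51% of all 32851 windows in the table and 2.31% of those of tested genes. Its lengths ranged from 5 bases in Rplp2 and Rps21 to 13 in Rpl15. No such run at the annotated start says only that these letters are not there, since annotated starts can lie some bases from those used in a cell.

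Other short motifs were counted in the same windows, as descriptions and not as sites. CTTTC within 25 bases of the start was found on the gene's strand in 25.7% of member windows and 6.75% of all windows, and on the other strand in 7.14% and 6.1%. CTTCC in the same stretch was found on the gene's strand in 27.1% and 10.6%, and on the other strand in 20% and 12.1%. Both motifs can overlap the pyrimidine run. CCGGAA, the core that ETS factors bind, was present on either strand between 250 bases before and 50 after the start in 48.6% of member windows, 14.9% of all windows and 27% of those of tested genes. AAGATGG, a core of the YY1 motif, was present in 17.1%, 6.34% and 7%. TATAAA was present in 10%, 13.6% and 7.34%. Measured against GENCODE transcripts, 8 members had the tract at their 5′ end (10.1%, comparing with 2.27% of 21786 genes). The median log2 fold change upon LPS challenge of those 8 members and of the other 71 was 0.26 and 0.26, 0.42 and 0.31, 0.31 and 0.32, and 0.42 and 0.36 in the 4 comparisons.

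Library totals ranged from 17527802 to 31458363 counts, and the members held at least 264353 of them in every library. A pair of scalings was used throughout, because they gave opposite directions for LPS. Library size scaling divides by the total counts, so a value is a share of the library. TMM scaling, from edgeR, sets the bulk of genes level between libraries, and its factors were 1.11 to 1.39 in the steady state libraries and 0.778 to 0.842 in the LPS libraries. In 2 groups libraries stood apart for the members: replicate 1 of GM-TC was below replicate 2, and replicate 2 of GM-noTC-LPS was below replicate 1. For other cell types, heart muscle markers summed to 24.3 to 85.2 CPM in the 4 TC steady state libraries, with all 10 detected, and to 0.234 to 1.17 CPM in the other 12, with 3 to 9 of the 10 at 0. T and NK cell markers summed to 0.111 to 1.84 CPM, B cell markers to 0.208 to 1.08, erythroid markers to 0.0777 to 1.26 and fibroblast markers to 1.5 to 13.4. Genes near 0 in the TC steady state libraries and high in other libraries had an excess in the noTC steady state libraries. As a share of their mean level in other libraries, it was about 0.675% in GM, over 15 genes, and 0.6% in M, over 19 genes. Choosing genes by low TC values can itself favour such an excess, and the reverse choice was not made. Subtracting that share of other libraries moved no count of members called by more than 1.5 times. Whether the excess was reads of other libraries or expression in the noTC cells was not tested.

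The members were spread over 19 chromosomes, with Rps4x, Rpl10, Rpl39 and Rpl36a on X. Their principal transcripts were 345 to 5179 nt long, with a median of 878 nt, comparing with 2542 nt over the genes of the table. Per kilobase of that transcript, the median level over the groups was 199 CPM per kb, with quartiles of 122 and 278 and a 27.1-fold range in all. Rplp0, the stalk base, was highest at 574 CPM per kb, followed by Rps2 at 474, Rpl41 at 427, Rps26 at 420 and Rps6 at 398. Rps15a, Rpl7l1, Rpl22, Rps20 and Rpl18 were lowest, at 21.2 to 39.1 CPM per kb, and their annotated principal transcripts were 2051 to 5179 nt long. The other paralogs were also low, Rpl22l1 at 40.5 and Rps27l at 84.7 CPM per kb. These levels are a description, since a principal transcript need not be the one made in these cells.

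For some members the counts are uncertain. Exons of 15 members overlap another gene of the table, 13 of them on the opposite strand, and whether the counting used strand is not given in the sources used here. RPS10-NUDT3 and Gm45713 overlap Rps10 and Rpl13a on the same strand. Values of 17 members were not whole in at least 1 library, as happens when reads are split between near-identical copies, and Rpl10, Rpl21, Rpl23a, Rpl31 and Rplp2 had such values in all 16 libraries. Rpl10 shares sequence with Rpl10-ps3, which held 0.0272% to 0.0567% of the counts of a library.

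At steady state, the members together made up 1.51% and 1.76% of the counts in GM-TC and 1.58% in both GM-noTC libraries. M cells lay higher, at 1.97% and 2.03% in M-TC and 1.86% and 1.89% in M-noTC. Upon LPS challenge GM-TC-LPS held 1.38% and 1.39%, GM-noTC-LPS held 1.44% and 1.29%, M-TC-LPS held 1.46% and 1.41%, and M-noTC-LPS held 1.44% and 1.46%. All 8 LPS libraries were below all 8 steady state libraries, and M cells had a higher share than GM cells at steady state but overlapped with them upon LPS challenge. As means, the share was 2 ± 0.0431% (SD, n = 2) in M-TC and 1.43 ± 0.0352% (SD, n = 2) in M-TC-LPS, and 1.63 ± 0.176% (SD, n = 2) in GM-TC and 1.39 ± 0.0112% (SD, n = 2) in GM-TC-LPS. After TMM scaling the order turned. The members summed to 13350 to 15850 TMM-scaled CPM in the 8 steady state libraries and to 16390 to 18480 in the 8 LPS libraries. In these bulk samples, fewer cells of a type and less RNA per cell cannot be told apart. Small subunit proteins took a near-constant part of the summed RP counts, with group means of 37.6% to 38.5%.

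**Figure D1:**
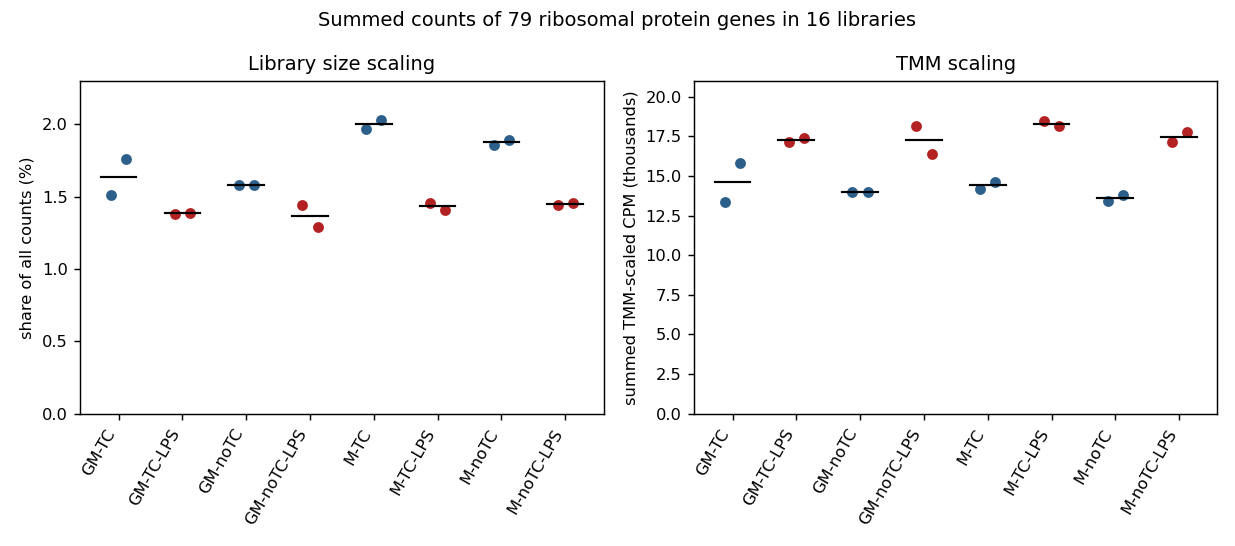
Summed counts of the 79 RP genes in each of the 16 libraries, as a percentage of all counts (left) and as TMM-scaled CPM divided by 1000 (right). Blue points are vehicle and red points LPS libraries, and a bar marks the mean of 2. All LPS libraries sit at 1.29% to 1.46%, below the steady state libraries, on the left, and above them, at 16390 to 18480 TMM-scaled CPM, on the right.

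LPS changed the RP genes together and by little. With TMM scaling, all 79 members had a positive log2 fold change in each of the 4 LPS comparisons, and edgeR called 63, 73, 67 and 76 of them higher (adjusted p under 0.05, adjusted over all genes tested). DESeq2 called 62, 73, 64 and 74 higher. None was called lower, none had an unadjusted p under 0.05 in that direction, and DESeq2 called none lower. Of all tested genes, 32.8% were called higher and 34.2% lower, 33.6% and 34%, 37.6% and 36.4%, and 36.4% and 35.9%. Median log2 fold changes of the members were 0.26, 0.32, 0.32 and 0.37, with the median of all tested genes at -0.05, -0.03, -0.01 and -0.01. The members lay close together, with an SD over members of 0.111 to 0.149 on the log2 scale, comparing with 1.42 to 1.85 over all tested genes. No member reached a fold change of 2. Without replicate 1 of GM-TC the number called higher in GM-TC was 32, and without replicate 1 of GM-noTC-LPS the number in GM-noTC was 48.

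With library size scaling the direction was the opposite. The members called lower were 51, 47, 76 and 73, and those called higher were 1, 1, 0 and 0, with no member at an unadjusted p under 0.05 for higher in the M comparisons. Of all tested genes, 17.2% were called higher and 62.7% lower, 16.4% and 63.8%, 16.3% and 69.1%, and 16.1% and 68.5%. The member medians were -0.22, -0.19, -0.5 and -0.35, above the medians of all tested genes at -0.53, -0.54, -0.83 and -0.73. The member median minus the median of all tested genes was therefore nearly the same under both scalings, at 0.31, 0.35, 0.33 and 0.37 with library size scaling. In share of reads RP mRNAs fell, and relative to the middle of the transcriptome they rose. Which of these holds per cell was not tested, and no spike-in is described in the sources used here. Mitochondrially encoded genes moved in the same direction as the RP share, with 3.97% to 8.35% of the counts of steady state libraries and 3.24% to 6.76% of those of LPS libraries, and their part in the result was not tested.

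**Figure D2:**
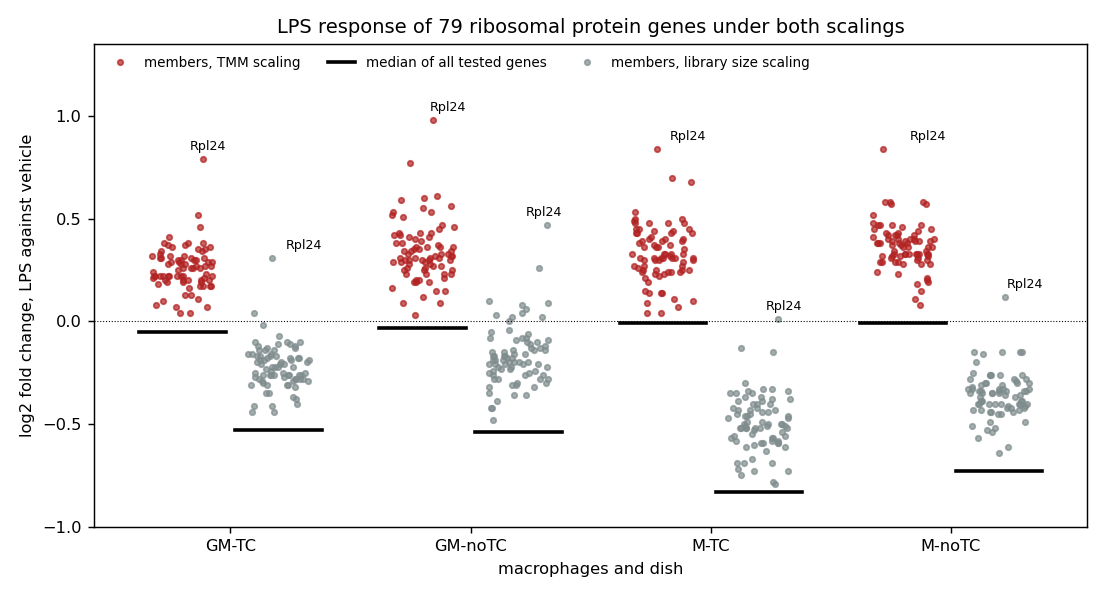
Log2 fold change upon LPS challenge of each of the 79 RP genes (points) under TMM scaling (red) and library size scaling (grey) in the 4 combinations of cells and dish. Black bars are medians of all 12514 tested genes under the same scaling. The members sit above the bar under either scaling, and Rpl24 sits above the other members in each combination.

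Rpl24 (ENSMUSG00000098274) encodes a large subunit protein at the face that joins the small subunit, and a mutation of it gives the Belly spot and tail mouse. It had the largest LPS response of the members in all 4 combinations. At steady state Rpl24 had 133 and 156 TMM-scaled CPM on TC and 129 and 129 on noTC dishes in GM cells, and M cells had 136 and 142 on TC and 129 and 132 on noTC dishes. With LPS it had 252 and 249 on TC and 268 and 240 on noTC dishes in GM cells, and M cells had 246 and 251 on TC and 226 and 241 on noTC dishes. Every LPS library was above every steady state library. The log2 fold changes of Rpl24 were 0.79 (SE 0.0662, adjusted p = 5.5e-10 from edgeR), 0.98 (SE 0.0661, adjusted p = 1.3e-11), 0.84 (SE 0.0661, adjusted p = 1.2e-10) and 0.84 (SE 0.0657, adjusted p = 1.2e-10). With library size scaling Rpl24 was still called higher in GM-TC (0.31, adjusted p = 0.00016 from edgeR) and GM-noTC (0.47, adjusted p = 8.6e-07), as the single member called higher, and was not called in M-TC (0.01, adjusted p = 0.84) or M-noTC (0.12, adjusted p = 0.094). Leaving out any library of the comparison kept the 4 TMM values of Rpl24 between 0.69 and 1.05 and past the threshold. With TMM scaling neither the growth factor nor the dish made a called difference to Rpl24, with log2 differences of -0.17 to 0.12, and with library size scaling Rpl24 was lower in GM at steady state (-0.25 on TC and -0.31 on noTC).

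Among the stalk proteins, 3, 3, 2 and 3 of 3 were called higher upon LPS challenge. Rplp0 rose by 0.2 to 0.36 on the log2 scale and Rplp2 by 0.33 to 0.4, each called in all 4. Rplp1 rose in 3 combinations and had 0.21 in M-TC (adjusted p = 0.055 from edgeR). Stalk and core members thus moved by like amounts, with medians over the stalk of 0.29 to 0.36.

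Of the 30 small subunit members, 22, 28, 26 and 30 were called higher in the same order. Rps6, the substrate of the S6 kinases downstream of mTOR, had log2 fold changes of 0.22, 0.3, 0.4 and 0.38, all called. Rps3, at the entry of the mRNA channel, had 0.22, 0.2, 0.29 and 0.29, all called, and Rps27a, which is made as a fusion with ubiquitin, had 0.36, 0.45, 0.45 and 0.52, all called. Rps19, which is mutated in Diamond-Blackfan anemia, was called in GM-noTC (0.19) and M-noTC (0.33) and had 0.16 in GM-TC and 0.14 in M-TC. Rpsa, also known as the laminin receptor, was called in all but GM-TC, where it had 0.13 (adjusted p = 0.053 from edgeR).

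Of the 43 large subunit members, 35, 39, 37 and 40 were called higher. Rpl38, needed for the translation of Hox mRNAs in the embryo, had log2 fold changes of 0.52, 0.61, 0.5 and 0.57, all called. On TC dishes Rpl38 went from 38.3 and 49.5 TMM-scaled CPM to 65.2 and 61.2 in GM cells and from 46.5 and 51.6 to 75 and 63.4 in M cells, without overlap. Rpl27 had 0.41, 0.55, 0.68 and 0.58, all called. Rpl5 and Rpl11, which bind Mdm2 when ribosome assembly is disturbed, were called in 4 and 3 combinations, at 0.17 to 0.38 for Rpl5 and 0.26 to 0.3 for Rpl11, which had 0.1 in GM-TC (adjusted p = 0.23 from edgeR). Rpl7 and Rpl26 were called in all 4, at 0.32 to 0.41 and 0.27 to 0.4. Rpl36a was also called in all 4, at 0.25 to 0.36.

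With TMM scaling the rise was called in all 4 combinations in 59 members, and in none in 2 members. The part of all tested genes called higher in all 4 was not counted. In single comparisons it was 32.8% to 37.6%. With library size scaling no member was called higher in M cells. Of the 2 members called in none with TMM scaling, 1 was Rpl3 (ENSMUSG00000060036), a core protein next to the site where peptide bonds form. Its fold changes on the log2 scale were 0.08, 0.09, 0.11 and 0.11, with adjusted p = 0.2, 0.17, 0.07 and 0.067 in edgeR. Its TMM-scaled CPM were 276 and 307 in GM-TC against 299 and 318 in GM-TC-LPS, which overlap, and 387 and 401 in M-TC against 426 and 426 with LPS. The other was Rpl10, which helps to complete the large subunit before it joins the small one, with 0.17, 0.25, 0.1 and 0.21 and with counts that are uncertain because of its pseudogene. Rpl13a, which in monocytes can leave the ribosome and silence inflammatory mRNAs as part of the GAIT complex, was called in M-noTC alone, at 0.15 (adjusted p = 0.018 from edgeR), with 0.07, 0.09 and 0.04 elsewhere. Rpl22 was called in GM-noTC alone, at 0.25, with 0.07 to 0.11 elsewhere, whereas its paralog Rpl22l1, which is known to increase when Rpl22 is lost, was called in all 4, at 0.46, 0.53, 0.24 and 0.44. Of the other paralogs, Rpl7l1 was called in all 4, at 0.13 to 0.33, and Rps27l in all but M-TC, at 0.29 to 0.46, with 0.14 there. With library size scaling all 3 paralogs were called lower in M-TC and M-noTC. Measured against the summed RP counts, 0 of the 3 were called in any LPS comparison.

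**Figure D3:**
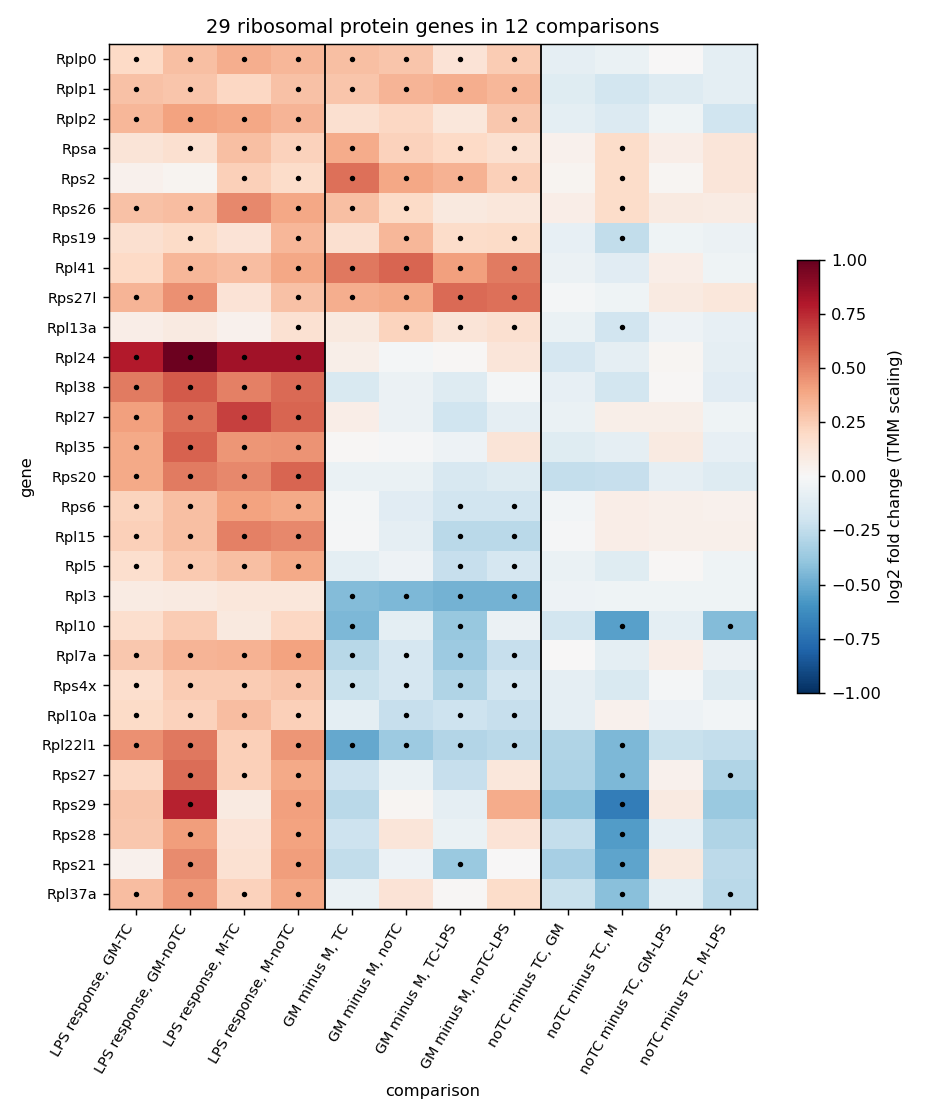
Log2 fold changes (TMM scaling) of 29 RP genes (rows) in the 4 LPS comparisons, the 4 comparisons of GM with M and the 4 comparisons of noTC with TC (columns). A dot marks an adjusted p under 0.05, red is higher and blue lower in the group named before the word minus or upon LPS challenge. The LPS columns are red in nearly all rows with Rpl24 the darkest, Rpl3 is blue in the 4 growth factor columns, and short genes such as Rps29 and Rps28 are blue in the M dish column.

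To find members that left the common movement, each gene was measured relative to the summed RP counts. This measure does not depend on how libraries are scaled. Dividing by the members' own sum keeps members that move together near 0. Fewer calls among members than among all genes therefore follow from the measure itself, here and in the later comparisons. Upon LPS challenge 4, 13, 10 and 8 members were called in either direction relative to the sum. Of all tested genes, 66.4%, 67.9%, 72% and 71.3% were called. These numbers of members depended on single libraries, with 1 to 12 called in GM-TC (12 without replicate 2 of GM-TC, 1 and 2 without replicates 1 and 2 of GM-TC-LPS) and 1 to 14 in GM-noTC (3 and 6 without replicates 1 and 2 of GM-noTC, 1 without replicate 1 of GM-noTC-LPS). In M-TC 5 and 6 were called without replicates 1 and 2 of M-TC-LPS, and in M-noTC 3 and 4 without replicates 1 and 2 of M-noTC and 3 without replicate 2 of M-noTC-LPS. Rpl24 was called in all 4 and in each of those fits. It took 91.9 to 99.5 of every 10000 RP counts in the steady state libraries and 132 to 147 in the LPS libraries, without overlap. Relative to the sum, Rpl24 rose by 0.55, 0.67, 0.5 and 0.48 on the log2 scale, with adjusted p = 1.7e-06, 7.9e-08, 4.6e-06 and 6.4e-06 in edgeR.

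The members that lost ground upon LPS challenge were Rpl13a, in all 4 combinations at -0.17, -0.21, -0.31 and -0.2, and Rpl3, at -0.22, -0.23 and -0.24 in GM-noTC, M-TC and M-noTC, with -0.17 in GM-TC (adjusted p = 0.06 from edgeR). Rpl13a in GM-TC was no longer called without replicate 1 of GM-TC (-0.14) or without either replicate of GM-TC-LPS (-0.16 and -0.19). Rpl3 in GM-noTC was no longer called without replicate 1 of GM-noTC (-0.18) or replicate 1 of GM-noTC-LPS (-0.18), and in M-noTC without replicate 2 of M-noTC-LPS (-0.22). Rps2, at the entry of the mRNA channel, lost ground in GM cells, with -0.21 on TC and -0.27 on noTC dishes, and had -0.1 and -0.17 in M cells, not called. Rps2 was no longer called in GM-TC without replicate 1 of GM-TC (-0.16) or either replicate of GM-TC-LPS (-0.19 and -0.22). On noTC dishes it was no longer called without replicate 1 of GM-noTC-LPS (-0.18). Rpl22 lost ground in M cells, with -0.28 in M-TC and -0.27 in M-noTC, the latter not called without replicate 1 of M-noTC-LPS (-0.24). Rpl38 gained in GM-TC (0.29) and GM-noTC (0.3), the former not called without replicate 1 of GM-TC or of GM-TC-LPS (0.23 each), and Rpl27 gained in GM-noTC (0.24), M-TC (0.33) and M-noTC (0.22). Rps29 gained in GM-noTC at 0.45, with 66.3 and 46.9 of 10000 RP counts in GM-noTC-LPS against 39.2 and 43.6 in GM-noTC, and was no longer called without replicate 1 of GM-noTC-LPS (0.18) or replicate 1 of GM-noTC (0.38).

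**Figure D4:**
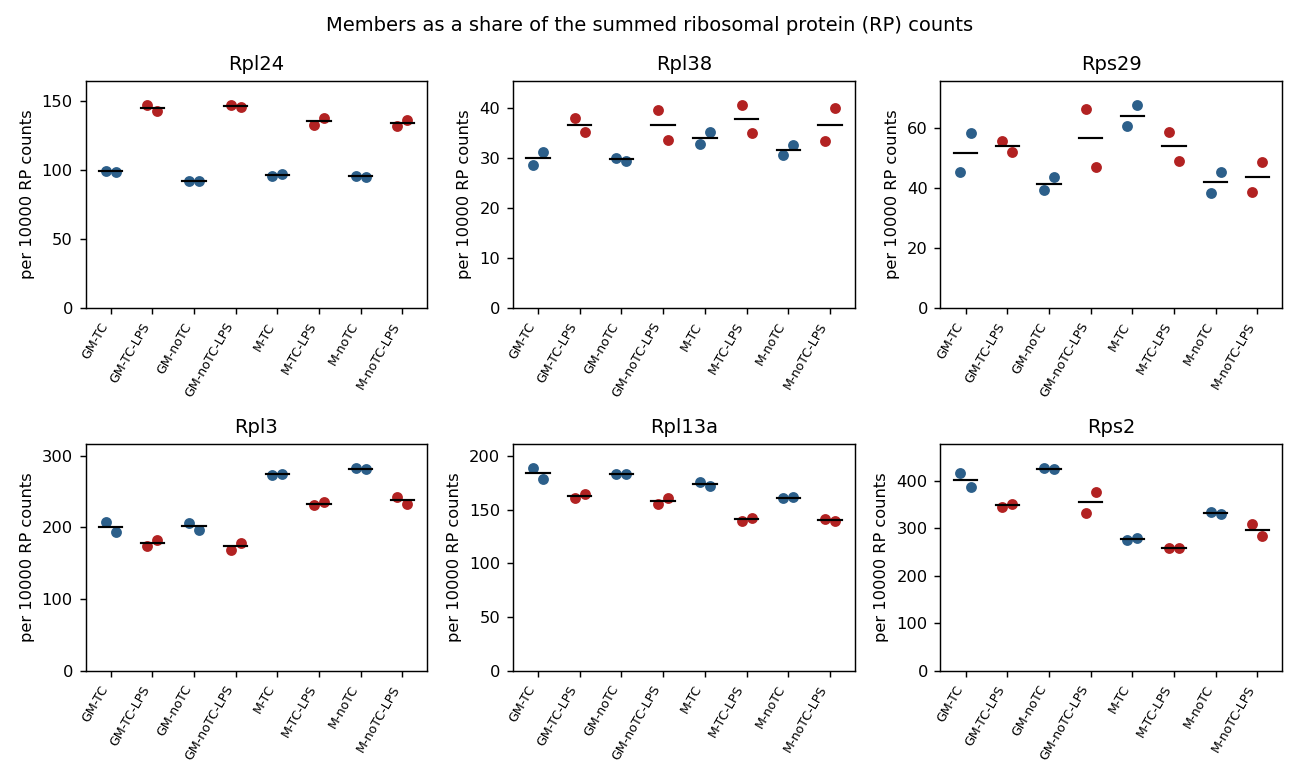
Counts of 6 RP genes per 10000 summed RP counts in each library, by group. Blue points are vehicle and red points LPS libraries, and a bar marks the mean of 2. Rpl24 is higher in all LPS libraries, Rpl38 is higher in the LPS than in the vehicle libraries of GM cells, Rpl3, Rpl13a and Rps2 are lower upon LPS challenge, and the libraries of Rps29 are spread widely within groups.

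Comparing GM with M cells, RP genes were called in both directions with TMM scaling and mostly lower in GM cells with library size scaling. With TMM scaling 14 members were called higher and 8 lower in GM on TC dishes, 14 and 6 on noTC dishes, 8 and 27 on TC dishes with LPS, and 9 and 13 on noTC dishes with LPS. Of all tested genes, 32.6% were called higher and 28.9% lower on TC dishes, 31.4% and 30.7% on noTC dishes, 33.9% and 32.9% on TC dishes with LPS, and 33.5% and 32.6% on noTC dishes with LPS, so a smaller part of the members than of all genes was called in each except lower in the TC LPS comparison, where the shares were close. Member medians were -0.02, -0.01, -0.1 and -0.02, beside 0.02, 0, 0.03 and 0.02 over all tested genes. With library size scaling the counts shifted to lower in GM, with 1 higher and 65 lower on TC, 1 and 55 on noTC, 10 and 25 on TC with LPS, and 5 and 23 on noTC with LPS. Member medians under that scaling were -0.33, -0.3, -0.06 and -0.09, beside -0.29, -0.29, 0.06 and -0.05 over all tested genes. The shares of all tested genes under that scaling were 19.6% and 50.8%, 19.7% and 52.1%, 35.5% and 31.3%, and 29.7% and 36.4%. Neutrophil markers summed to 14.4 to 35.5 CPM in GM and 0.452 to 1.73 CPM in M libraries, mast cell and basophil markers to 14.5 to 37.1 and 2.53 to 11.4 CPM, nearly all of it Kit, and GM-CSF culture markers to 2840 to 3960 and 321 to 411 CPM. Their part in the result was not tested.

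Single libraries moved these numbers. The share of all tested genes called was not counted for TMM fits without a library. On TC dishes, 27 members were called higher and 5 lower in GM without replicate 1 of GM-TC, 6 higher and 42 lower without replicate 2 of GM-TC, and 6 higher without replicate 1 of M-TC. On TC dishes with LPS, 5 were called higher without either replicate of GM-TC-LPS and 4 without replicate 2 of M-TC-LPS. On noTC dishes with LPS, 4 were called higher and 22 lower without replicate 1 of GM-noTC-LPS, 20 higher and 5 lower without replicate 2 of it, and 5 higher without replicate 1 of M-noTC-LPS. Relative to the summed RP counts 20, 16, 24 and 16 members were called in either direction, comparing with 54%, 54.3%, 60.8% and 59.9% of all tested genes. These fell to 13 on TC dishes without either replicate of M-TC, to 6 and 8 on noTC dishes without replicates 1 and 2 of GM-noTC and 8 and 6 without those of M-noTC, to 9 and 10 on TC dishes with LPS without those of GM-TC-LPS and 13 and 11 without those of M-TC-LPS, and on noTC dishes with LPS to 9 without replicate 1 of GM-noTC-LPS and 6 and 9 without replicates 1 and 2 of M-noTC-LPS. The members named next were called in the same direction in all 4 comparisons with TMM scaling.

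Rpl3 (ENSMUSG00000060036) was lower in GM cells under both scalings. In GM cells its TMM-scaled CPM were 276 and 307 on TC and 289 and 275 on noTC dishes, and with LPS 299 and 318 and 307 and 291. In M cells they were 387 and 401 on TC and 380 and 388 on noTC dishes, and with LPS 426 and 426 and 417 and 414. Every GM library lay below every M library. The log2 differences GM minus M of Rpl3 were -0.43, -0.45, -0.47 and -0.47 (SE 0.054 to 0.0545, adjusted p = 3.9e-07, 2.3e-07, 1.3e-07 and 1e-07 from edgeR) with TMM scaling and -0.75, -0.74, -0.43 and -0.55 with library size scaling. Relative to the summed RP counts Rpl3 had -0.45, -0.48, -0.38 and -0.46, all called. Rps4x, the X-linked small subunit protein, was lower with -0.22, -0.17, -0.3 and -0.19, and so was Rpl7a with -0.28, -0.17, -0.36 and -0.23. With library size scaling Rps4x and Rpl7a were also called lower in all 4 (-0.27 to -0.59). The paralog Rpl22l1 had -0.51, -0.36, -0.29 and -0.27 (18.5 and 20.3 TMM-scaled CPM in GM-TC against 26.3 and 29 in M-TC), and its value on noTC dishes with LPS was no longer called without replicate 2 of GM-noTC-LPS (-0.16) or replicate 2 of M-noTC-LPS (-0.2).

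Rpl41 (ENSMUSG00000093674), the shortest RP, was higher in GM cells. In GM cells it had 231 and 298 TMM-scaled CPM on TC and 254 and 255 on noTC dishes, and with LPS 313 and 295 and 360 and 279. M cells had 182 and 184 on TC and 163 and 177 on noTC dishes, and with LPS 239 and 216 and 213 and 232. GM and M libraries did not overlap at steady state or upon LPS challenge. The log2 differences GM minus M of Rpl41 were 0.53, 0.58, 0.41 and 0.52 (SE 0.0996 to 0.1, adjusted p = 9e-05, 2.8e-05, 0.001 and 9.4e-05 from edgeR). Under library size scaling Rpl41 had 0.22 (adjusted p = 0.057 from edgeR), 0.29, 0.45 and 0.45, so that only the value on TC dishes at steady state missed the threshold. Relative to the summed RP counts it had 0.5 to 0.54, all called.

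Rps2 (ENSMUSG00000044533) was also higher in GM cells, with log2 differences of 0.55, 0.39, 0.35 and 0.24 with TMM scaling. Its TMM-scaled CPM were 555 and 616 in GM-TC against 392 and 408 in M-TC, and 597 and 596 in GM-noTC against 450 and 458 in M-noTC. Under library size scaling Rps2 had 0.23, 0.1, 0.38 and 0.17, not called on noTC dishes at steady state (adjusted p = 0.073 from edgeR). Rps27l, the paralog of Rps27 that p53 induces, had 0.36, 0.38, 0.57 and 0.55 and a level of 34.7 to 45 TMM-scaled CPM in GM and 28.6 to 33.3 in M steady state libraries. Under library size scaling Rps27l had 0.05 and 0.09 at steady state, not called, and 0.6 and 0.48 upon LPS challenge, called. The stalk proteins Rplp0 (0.3, 0.28, 0.14 and 0.25) and Rplp1 (0.28, 0.34, 0.36 and 0.33) and Rpsa (0.37, 0.23, 0.2 and 0.16) were higher with TMM scaling. Scaled by library size, Rplp0 had -0.02 and -0.01 and Rplp1 -0.03 and 0.05 at steady state, so their direction there depended on the scaling, and both were called higher upon LPS challenge (0.18 and 0.17, and 0.39 and 0.26). Rpsa had 0.06, -0.06, 0.23 and 0.08 with library size scaling, called on TC dishes with LPS alone. Relative to the summed RP counts Rplp0 and Rplp1 were higher in all 4, at 0.23 to 0.28 for Rplp0 and 0.25 to 0.44 for Rplp1. The TMM value of Rplp1 was no longer called on TC dishes with LPS without replicate 2 of M-TC-LPS (0.27), and on noTC dishes with LPS without replicate 1 of GM-noTC-LPS (0.21) or replicate 1 of M-noTC-LPS (0.27).

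The dish surface was a question of the study, and in GM cells no RP gene was called between dishes. With TMM scaling 0 members were called in GM-noTC comparing with GM-TC by edgeR, and DESeq2 also called 0, with 10 members at an unadjusted p under 0.05 for lower and 0 for higher. Of all tested genes 4.69% were called higher and 2.85% lower in this fit of all libraries. Such shares were not counted for fits without a library, so counts of members there cannot be read against all genes. The median over members was -0.07, and Rps29 was at the bottom with -0.4 (adjusted p = 0.19 from edgeR). Without replicate 1 of GM-TC, the library with the lower RP share, 47 members were called lower. Upon LPS challenge 0 members were called between GM dishes by either tool, with 0 and 2 at an unadjusted p under 0.05 for higher and lower, while 2.08% and 0.727% of all tested genes were called. Per summed RP count 0 members were called in either comparison by edgeR, with 0 higher and 3 lower at an unadjusted p under 0.05 at steady state, and 0 and 1 with LPS, comparing with 3.57% and 0.879% of all tested genes. Without replicate 1 of GM-TC, 6 were called relative to the sum at steady state.

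In M cells, 14 RP genes were lower and 3 higher in M-noTC comparing with M-TC, while 16.1% of all tested genes were called higher and 11.1% lower. Rps29 (ENSMUSG00000034892), a zinc-binding protein of the small subunit head, had the largest decrease. It had 86.2 and 98.7 TMM-scaled CPM in M-TC and 51.7 and 62.5 in M-noTC, a log2 difference of -0.69 (SE 0.171, adjusted p = 0.0041 from edgeR). In GM the libraries of Rps29 overlapped, with 60.4 and 92.2 on TC and 54.9 and 61 on noTC dishes. Rps28 went from 52.3 and 55.3 to 33 and 39.5 in M cells, a log2 difference of -0.56 (adjusted p = 0.0037 from edgeR), and Rps21 from 43.2 and 49.3 to 29.1 and 34.9, at -0.53 (adjusted p = 0.0028). Rps27 had -0.45, Rpl37a -0.42, Rpl37 -0.4 and Rpl35a -0.39, all called. Rpl10 was lower at -0.54 (adjusted p = 0.0011 from edgeR), with the doubt about its pseudogene, and Rpl22l1 at -0.45. The 3 members that were higher were Rps2, Rpsa and Rps26, each at 0.18.

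Without single libraries these dish calls in M cells became fewer. Between 5 and 13 members were called lower, with 5 without replicate 2 of M-TC and 5 without replicate 1 of M-noTC. The number called higher was 0 without replicate 1 of M-TC or replicate 2 of M-noTC and 1 without the other two. Rpsa lost its call without any 1 of the 4 libraries, whereas Rps2 kept it without replicate 2 of M-TC and Rps26 without replicate 1 of M-noTC. Rps29 missed the threshold without replicate 2 of M-TC (-0.59) or replicate 1 of M-noTC (-0.57), and Rps28 without replicate 1 of M-noTC (-0.45). Per summed RP count, 11 members were called, comparing with 18.7% of all tested genes. They were Rps29, Rps28, Rpl10, Rps21, Rps27, Rpl22l1, Rpl37a and Rpl35a with less and Rps2, Rpsa and Rps26 with more. Without replicates 1 and 2 of M-TC 6 and 1 were called relative to the sum, and without replicates 1 and 2 of M-noTC 1 and 5. Heart muscle markers, present in M-TC at 85.2 and 49 CPM and near 0 in M-noTC, moved with the dish. So did the excess in M-noTC of genes high in other libraries. The part of either in the result was not tested.

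Upon LPS challenge fewer RP genes were called between dishes in M cells. With TMM scaling the member median was -0.09, beside -0.1 at steady state. A test of the LPS response between the M dishes called 0 members, so fewer calls do not show a smaller dish difference. On noTC dishes with LPS, 0 members were called higher by edgeR and by DESeq2, with 2 at an unadjusted p under 0.05, and 3 were called lower, while 10.4% and 12.9% of all tested genes were called. These were Rpl10 (-0.43), Rps27 (-0.3) and Rpl37a (-0.27), and 0 were called without replicate 2 of M-TC-LPS or replicate 1 of M-noTC-LPS. Rps27 lost its call without any 1 of the 4 libraries (-0.23 to -0.38), and Rpl37a also without replicate 1 of M-TC-LPS (-0.23). Scaled by library size, 6 members were called higher and 1 lower, comparing with 16.8% and 7.03% of all tested genes. Under that scaling the member median was 0, beside 0.08 over all tested genes. With TMM scaling it was -0.09, beside 0 over all tested genes. Per summed RP count Rpl10 alone was called (-0.36), comparing with 12.2% of all tested genes, and it was not called without replicate 1 (-0.41) or 2 (-0.31) of M-TC-LPS or replicate 1 of M-noTC-LPS (-0.24).

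Many of the members that were lower on noTC dishes in M cells have short transcripts. Of the 19 members under 600 nt 8 were called lower and none higher, and of the 60 longer ones 6 were called lower and 3 higher, with medians of -0.18 and -0.09. Across the 79 members the log2 difference and the log2 transcript length had a Pearson r of 0.377 (Spearman rho 0.348) in M cells. In GM cells r was 0.339 (rho 0.308) at steady state and 0.0785 (rho 0.0613) with LPS, and in M cells with LPS it was 0.335 (rho 0.35). Members of 1 comparison share the same 4 libraries, so these correlations are descriptions across genes. In the LPS comparisons r was -0.248, -0.356, 0.0943 and -0.138, and the median of the short members in GM-noTC was 0.42 against 0.3 for the longer ones. Fragment size and RNA quality of the libraries were not analysed here.

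**Figure D5:**
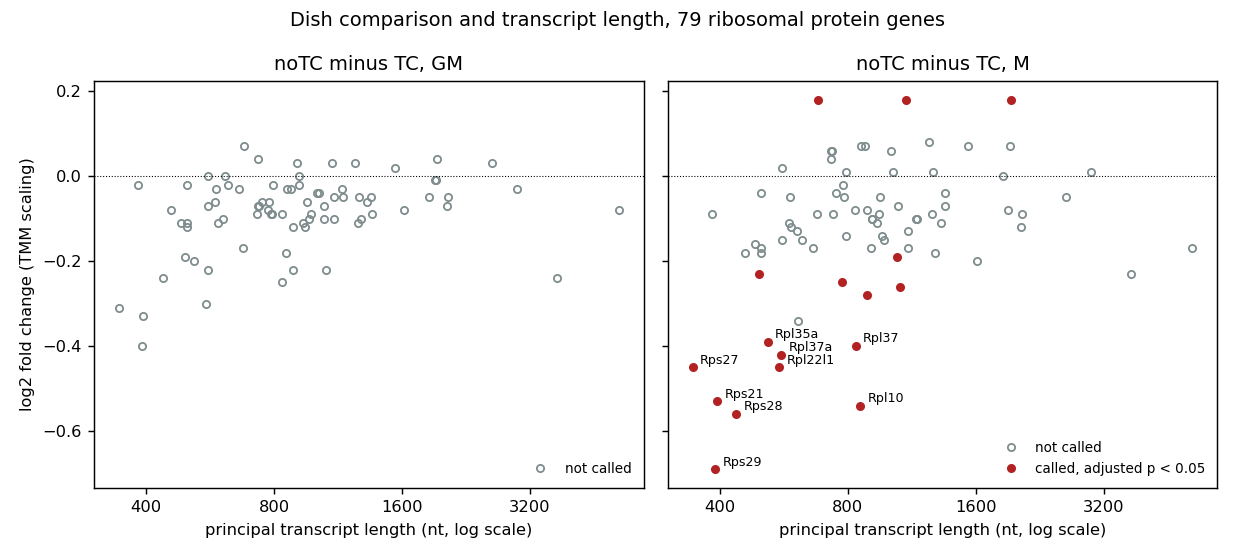
Log2 difference noTC minus TC (TMM scaling) of each of the 79 RP genes against the length of its principal transcript in nt (log axis), in GM (left) and M (right) steady state cells. Filled red points have an adjusted p under 0.05. In M cells Rps27, Rps29, Rps21 and Rps28, among the shortest, lie lowest together with Rpl10, and in GM cells the points of the shortest genes also lie lower but none is called.

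Whether the LPS response itself differed between cells was tested as an interaction. With TMM scaling the response was smaller in GM than in M for 6 members on TC dishes and for 1 on noTC dishes, and larger for 0, with 0 at an unadjusted p under 0.05 for larger on either dish (edgeR; DESeq2 was not run for interactions). Among all tested genes 17.8% were called larger and 23.3% smaller on TC, and 16.9% and 19.3% on noTC. Among the 6 members on TC dishes were Rpl15 (-0.26), Rpl6 (-0.23), Rpl8 (-0.21), Rps26 (-0.2) and Rps2 (-0.2). Scaled by library size, the direction turned, with 40 members larger and 0 smaller in GM on TC and 11 and 0 on noTC, comparing with 39.1% and 10.4% and with 30% and 11% of all tested genes. No member had an unadjusted p under 0.05 for smaller under that scaling. Per summed RP count 1 member was called on TC, Rpl39, which lines the exit tunnel (0.46, adjusted p = 0.036 from edgeR), and 0 on noTC, where 0 had an unadjusted p under 0.05, comparing with 30.3% and 25.6% of all tested genes. On TC dishes 36 members were called smaller without replicate 1 of GM-TC, 3 without replicate 2 of M-TC and 2 each without replicate 2 of GM-TC, replicate 1 of GM-TC-LPS, replicate 1 of M-TC or replicate 1 of M-TC-LPS, and 4 were called larger without replicate 2 of GM-TC. On noTC dishes 0 were called smaller when any 1 of the 8 libraries was left out, and 1 member was called larger without replicate 2 of GM-noTC-LPS.

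Whether the response differed between dishes was tested in the same way. In GM cells 0 members had a called difference of the LPS response between noTC and TC, with 2 at an unadjusted p under 0.05 for larger and 0 for smaller, and in M cells 0 had one, with 0 in either direction at that p. Of all tested genes 0.192% were called larger and 0.591% smaller on noTC in GM, and 3.11% and 7.48% in M. Without replicate 1 of GM-TC, 10 members were called larger on noTC in GM.

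The genes around the RPs were counted from lists. A list of 5 genes of the cytosolic ribosome that the symbol pattern leaves out, Rack1 and Fau among them, had 3, 4, 5 and 5 called higher and 0 lower upon LPS challenge with TMM scaling. By library size, 4, 4, 5 and 5 of them were called lower. The values of Rack1, a scaffold on the small subunit, were 0.21, 0.27, 0.46 and 0.35 with TMM scaling and -0.27, -0.24, -0.37 and -0.37 with library size scaling. Of 7 elongation factors 4, 4, 6 and 5 were called higher and 1 lower in each with TMM scaling, and 1 higher and 6, 5, 6 and 6 lower with library size scaling. Eef1a1 and Eef2, which are themselves 5′TOP mRNAs, had 0.37, 0.43, 0.46 and 0.39 and 0.28, 0.26, 0.24 and 0.22 with TMM scaling. By library size, Eef1a1 had -0.11, -0.08, -0.36 and -0.34 and Eef2 -0.21, -0.25, -0.58 and -0.5. A list of genes outside the members known as 5′TOP mRNAs was planned with Eef1a1 and Eef2 in it, so it overlaps with the elongation factors. Of its 12 genes, 9 were called higher in each combination and 3, 3, 3 and 2 lower with TMM scaling. With library size scaling 2, 2, 1 and 1 were higher and 8, 5, 8 and 10 lower.

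The other lists of the translation machinery are read against all tested genes, of which 32.8%, 33.6%, 37.6% and 36.4% were called higher and 34.2%, 34%, 36.4% and 35.9% lower upon LPS challenge with TMM scaling. With library size scaling 17.2%, 16.4%, 16.3% and 16.1% were called higher and 62.7%, 63.8%, 69.1% and 68.5% lower. No difference between a list and the RPs was tested. Initiation factors had medians close to those of the RPs or above them, with 0.24, 0.28, 0.55 and 0.38 beside 0.26, 0.32, 0.32 and 0.37. Of the 41 initiation factors 30, 30, 33 and 30 were called higher and 7, 6, 5 and 4 lower with TMM scaling, and 7, 7, 9 and 8 higher and 24, 27, 25 and 27 lower with library size scaling. Of 55 ribosome biogenesis factors 18, 18, 32 and 28 were called higher and 16, 20, 6 and 10 lower with TMM scaling (medians -0.06, 0, 0.32 and 0.18), and 9, 5, 11 and 10 higher and 39, 38, 36 and 38 lower with library size scaling. In the dish comparison of M cells 30 of these 55 were called higher and 0 lower on noTC, beside 16.1% and 11.1% of all tested genes, and 14 RP genes were lower. In the interaction on TC dishes 31 of them had a smaller and 0 a larger LPS response in GM than in M with TMM scaling, beside 23.3% and 17.8% of all tested genes. Library size scaling turned this contrast over all tested genes, with 10.4% called smaller and 39.1% larger. Counts of the list in this interaction under that scaling are not given here. Of 11 genes of RNA polymerase I 3, 3, 5 and 4 were called higher and 2, 2, 3 and 2 lower (medians 0.18, 0.13, 0.11 and -0.13), and 1, 0, 0 and 0 higher and 7, 7, 10 and 10 lower with library size scaling. Of 78 mitochondrial ribosomal proteins, which serve the separate ribosomes of mitochondria, 10, 12, 32 and 29 were called higher and 28, 22, 25 and 21 lower with TMM scaling, with 1, 1, 3 and 2 higher and 64, 65, 65 and 67 lower with library size scaling. Their TMM medians were -0.09, -0.04, 0.06 and 0.06, and in M cells the part called higher was near that of all tested genes.

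Of 12 regulators of ribosome synthesis and translation 4, 3, 7 and 5 were called higher and 6, 5, 4 and 3 lower with TMM scaling (medians -0.05, -0.05, 0.46 and 0.13), and 1, 1, 3 and 2 higher and 9, 10, 7 and 9 lower with library size scaling. The genes named from these lists in this and the preceding paragraphs were chosen after their values were seen. Larp1, which binds the 5′TOP, rose under both scalings, with log2 fold changes of 2.21, 2.04, 2.89 and 2.48 with TMM scaling and 1.73, 1.53, 2.06 and 1.75 with library size scaling. Pabpc1, the poly(A) binding protein and a 5′TOP mRNA, rose with 0.83, 0.82, 0.98 and 1.02 and with 0.35, 0.31, 0.15 and 0.3. Eif4b, a helicase cofactor and a 5′TOP mRNA, fell under both scalings, with -0.34, -0.3, -0.74 and -0.5 with TMM scaling. Myc, a driver of ribosome synthesis, fell in GM-TC (-1.7), GM-noTC (-2.38) and M-noTC (-0.81) and rose in M-TC (2.02) with TMM scaling, in the same directions as with library size scaling (-2.18, -2.89, -1.53 and 1.19). The RP genes rose with TMM scaling in all 4 combinations, by medians of 0.26 to 0.37.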

How the data were processed

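RNA was enriched with oligo(dT), sequenced on an Illumina NovaSeq and, per the study's methods, aligned with HISAT2 and quantified with RSEM. The deposited expected counts are the authors' RSEM estimates per gene, 1 column per library, with no normalization, and 6.56% to 8.19% of genes per library were not whole. Submitters' processing notes also name fastp 0.18.0, Bowtie2 2.2.8 and StringTie 1.3.1. Genome build and annotation are not given in the sources used here.

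Values were rounded and fitted in edgeR 4.0.16 (R 4.3.3) with filterByExpr, TMM factors and the quasi-likelihood test over all 16 libraries in 8 groups, with Benjamini-Hochberg adjustment over 12514 genes and a threshold of 0.05. The common dispersion was 0.00226. Library totals of 17527802 to 31458363 put 3 counts at 0.0954 to 0.171 CPM. With 2 libraries against 2 an exact permutation test cannot go below p = 0.333, so single values carry no such test. The same fit was run with library size scaling, and with the summed RP counts as library size. DESeq2 1.42.0, other filters and factors, a replicate block, and fits without each library were the alternatives, and the script was tested on simulated data. The share of all tested genes called was not counted for these alternatives. Fits of the response interactions without each library were added after seeing the data. Named members were those fixed by role, those nearest the count threshold, up to 3 per direction and comparison with the largest TMM log2 fold change among those called and not overlapping between groups, and up to 2 relative to the summed RP counts. Members named beyond this were chosen after their values were seen. Lengths and overlaps came from GENCODE vM21 and start windows from RefSeq. Members and lists were chosen with earlier results of these data known. Results of a few genes are not reported here.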

Additional observations from a re-analysis of the deposited data

Results flagged for a closer look

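The LPS response of 6 RP genes was smaller in GM than in M on TC dishes by a test of the difference itself (the interaction in edgeR with TMM scaling). Of all tested genes 23.3% were called smaller there, a larger part than of the 79 members. Rpl15, a large subunit protein, had -0.26 on the log2 scale (SE 0.0754, adjusted p = 0.0074), and kept its call when any single library was left out. Rpl6 had -0.23 (adjusted p = 0.025), Rpl8 -0.21 (adjusted p = 0.044), Rps26 -0.2 (adjusted p = 0.045) and Rps2 -0.2 (adjusted p = 0.032), and each lost its call without at least 1 library. With library size scaling the values were 0.08 for Rpl15, 0.12 for Rpl6, 0.14 for Rpl8, 0.15 for Rps26 and 0.15 for Rps2. Under that scaling 40 members were called larger and 0 smaller, comparing with 39.1% and 10.4% of all tested genes. Relative to the summed RP counts, which no scaling touches, none of the 6 was called.

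Rpl39, the small protein that lines the exit tunnel, was called in the other direction relative to the summed RP counts on TC dishes, with 0.46 (adjusted p = 0.036 from edgeR). GM cells on TC dishes went from 37.3 and 55.4 TMM-scaled CPM of Rpl39 to 61.6 and 59.9 with LPS, and M cells from 54.4 and 53.4 to 56.5 and 54.5. The call was lost without 7 of the 8 libraries, each left out alone.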

How the results depend on the processing

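No pairing by replicate number was seen, as deviations of same-numbered libraries correlated with r of -0.0636 to 0.02 over 12 comparisons. With 2 libraries per group this cannot exclude that same-numbered libraries share an origin. The fit with the replicate block moved no count of members called by over 1.5 times, such as 13 higher and 9 lower for GM minus M on TC, and ended 1 named call, Rpl13a relative to the sum in GM-TC (-0.17). TMM factors without RP genes and subtraction of other libraries' reads also moved no count that far.

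With library size scaling, higher and lower calls were 1 and 51, 1 and 47, 0 and 76, and 0 and 73 for LPS in GM cells on TC and noTC and M cells on TC and noTC, with medians of -0.22, -0.19, -0.5 and -0.35. They were 1 and 65, 1 and 55, and 5 and 23 for GM minus M on TC, noTC and noTC with LPS, 6 and 1 with a median of 0 for the M-LPS dishes, and 40 and 0 and 11 and 0 for the interactions. Rpl22l1 in GM-TC (-0.02), Rpl27 (-0.15) in M-TC, and Rps20 (-0.15) and Rpl27 (-0.15) in M-noTC turned. DESeq2 gave 9 and 14 for GM minus M on TC, 5 higher on TC with LPS and 5 lower for the M-LPS dishes. DESeq2 size factors in edgeR gave 15 lower, 5 higher and 5 lower there. Without the expression filter 18 were lower for GM minus M on TC, 14 higher on noTC with LPS, and 13, 24 and 12 lower for the GM, M and M-LPS dishes. Relative to the sum it gave 5 for LPS in M-noTC, 9 and 15 for GM minus M on noTC and TC with LPS, and 2 for the M-LPS dishes. Fitted on the comparison's libraries alone, GM minus M gave 7 higher on TC, 26 and 17 on noTC and 13 higher on TC with LPS, and the M and M-LPS dishes gave 49 lower and 1 and 6. Relative to the sum these fits gave 1, 8, 21 and 20 for LPS, 6, 48, 39 and 10 for GM minus M, and 30 and 8 for the M and M-LPS dishes. The causes were not tested. Apart from library size scaling, the share of all tested genes called was not counted for these fits.

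Leaving out 1 library, LPS calls for higher ranged over 32 to 77 in GM-TC, 48 to 73 in GM-noTC, 55 to 63 in M-TC and 61 to 75 in M-noTC. GM minus M ranged over 6 to 27 higher and 5 to 42 lower on TC, 11 to 11 and 4 to 5 on noTC, 4 to 6 and 18 to 26 on TC with LPS, and 4 to 20 and 5 to 22 on noTC with LPS. Dish calls for lower ranged over 0 to 47 in GM, 5 to 13 in M and 0 to 3 in M-LPS, and for higher over 0 to 1 in M. Interactions ranged over 0 to 4 larger and 2 to 36 smaller on TC, 0 to 1 and 0 to 0 on noTC, and 0 to 10 larger between GM dishes. Relative to the sum the ranges were 1 to 12, 1 to 14, 5 to 8 and 3 to 6 for LPS, 13 to 27, 6 to 8, 9 to 13 and 6 to 17 for GM minus M, and 0 to 6, 1 to 6 and 0 to 1 for the GM, M and M-LPS dishes. Named members lost their call in 101 of these fits and kept it in 259. The minimum of 1000 summed counts fixed that members were detected, and it left out paralogs with few reads (Rpl10l, Rpl39l and Rpl3l, with 0, 24 and 49).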
